A study of Mus musculus with 12 samples.

Results

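The transgene effect pooled over diets was measured in the visceral white fat of mice of strain FVB/N, from all 12 libraries of the study, as the difference between 6 transgenic and 6 wild-type libraries with diet held as a second term. The transgenic mice (labelled tgf) carried a TGF-b construct and a tTA driver, both expressed from the heart's alpha-myosin heavy chain (αMHC) promoter, so the transgene is placed in heart muscle and not in fat. The wild-type mice (labelled wt) carried the tTA driver alone, so the driver is shared by both genotypes. Each genotype was represented by 3 libraries from mice fed control chow, which supplied 17% of its calories as fat at 3.1 kcal/g, and 3 from mice on a high-fat chow, with 60% of its calories as fat at 5.21 kcal/g. High-fat feeding was given at 8 to 10 weeks of age for 2 or 6 weeks, with no label that assigns a duration to a library. The labels also do not tie a library to an animal, so the p-values reflect variation among libraries, part of which may be technical. Pooling the diets asks which adipose transcripts differ between the genotypes on average over both feeding regimes, and sets 6 libraries against 6 where a single diet has 3 against 3. Of 50559 genes in the count tables, 16550 passed the filter on low counts and are the members described here.

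TGF-beta ligands are secreted in latent complexes, bind serine/threonine kinase receptors and act through Smad transcription factors, and in fat they are known to restrain adipocyte differentiation and to promote matrix deposition. The heart also acts on adipose tissue as an endocrine organ, best known through natriuretic peptides, which bind receptors on adipocytes and stimulate lipolysis, while the clearance receptor Npr3 removes them. Visceral fat holds adipocytes with their progenitors, endothelium, macrophages and a mesothelial covering, and it stores or oxidises fatty acids according to nutrient supply.

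The 12 libraries held 20.1 to 21.3 M gene counts and detected 22603 to 23720 genes each. Diet separated along the first principal component (28% of the variance), and none of the first 4 components separated the genotypes. Some libraries carried transcripts of other tissues, measured here as the mean of log2(CPM + 1) over a marker list. For epithelial genes this mean was 2.49 in transgenic control replicate 2, 2.40 in wild-type control replicate 1 and no higher than 0.799 in the others. For muscle genes it was 3.95 in transgenic control replicate 3, 3.57 in wild-type high-fat replicate 3 and no higher than 1.33 in the others. For liver genes wild-type high-fat replicate 2 reached 5.01, and the other 11 libraries stayed at or below 3.16. Each genotype thus held 1 epithelium-rich and 1 muscle-rich library, and results were recomputed without these 4. In bulk tissue, fewer cells of a type and less RNA per cell cannot be told apart.

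No gene passed edgeR's quasi-likelihood test of the genotype term after Benjamini-Hochberg adjustment over the 16550 genes (0 called, percent called 0, smallest adjusted p = 0.168). At an unadjusted p below 0.05 there were 1972 genes (11.9%), against 828 by chance, of which 1031 (6.23%) were higher and 941 (5.69%) lower in transgenic tissue. The median log2 difference over all genes was -0.0027, and 49.4% of genes lay above 0. DESeq2 on the same 12 libraries called 196 genes (1.18%), 114 higher (0.689%) and 82 lower (0.495%), while limma-voom with quality weights called 0 (2071 at an unadjusted p below 0.05). DESeq2 gave no adjusted p for 1695 genes, and its shares are of all 16550. All 196 differed in the same direction on both diets, against 58.2% of all genes. Within either diet, 110 of them showed no overlap between the genotypes. Over all genes, 0.864% were higher and 0.828% lower without such overlap. The 196 were called on the same 12 libraries, so these counts describe the selected genes and are not separate support. The differences below are therefore given as values that did not pass edgeR's test, with the DESeq2 adjusted p where that tool called the gene. Levels are CPM values (library-size scaled counts with TMM factors), a log2 difference is transgenic minus wild type, and SE is its standard error. Counts of list members at an unadjusted p below 0.05 are to be read beside the 11.9% of all genes. All gene lists were chosen with earlier results of these data known, so their counts are descriptions and not separate support.

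Tgfb1, which encodes the ligand TGF-b1, ranged from 51.3 to 82.3 CPM with a median of 68.4 CPM in the 6 transgenic libraries, and from 45.7 to 69.0 CPM with a median of 55.7 CPM in the 6 wild-type libraries. Within each diet every transgenic library lay above every wild-type library, and across diets the ranges overlapped. The adjusted log2 difference was 0.25 (SE 0.06, edgeR adjusted p = 0.194, DESeq2 adjusted p = 0.0221), with 0.29 on control diet and 0.21 on high-fat diet. Tgfb1 lies at chromosome 7, 25687002 to 25705077 (GRCm38). Transgene and endogenous reads cannot be told apart in gene counts, and an adipose level does not check a transgene placed in the heart. Myh6, the cardiac myosin gene whose promoter drives the transgene, ranged from 0 to 2.20 CPM in transgenic and 0.356 to 1.16 CPM in wild-type tissue.

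Other parts of the TGF-beta pathway were spread around the background. Of 12 tested genes for ligands and latency, 2 were higher and 1 lower at an unadjusted p below 0.05, with a median log2 difference of -0.01. The second higher gene was Lrrc32, which encodes the protein GARP that holds latent TGF-beta at the cell surface (median 42.3 CPM against 30.4 CPM, log2 0.51, SE 0.12, DESeq2 adjusted p = 0.0144). Its difference was 0.78 on control diet and 0.25 on high-fat diet. Itgb8, an integrin subunit that activates latent TGF-beta, was the lower gene (2.03 CPM against 3.22 CPM, log2 -0.88, SE 0.28). Among 18 receptors and Smads, 2 were higher and 0 lower at that p, with a median of 0.04, and these were the endothelial co-receptor Eng (0.48, SE 0.14) and the inhibitory Smad6 (0.42, SE 0.19). Smad7, the other inhibitory Smad and a feedback target, stood at 0.33 (SE 0.16) and Smad1, which carries BMP signals, at 0.17 (SE 0.08).

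TGF-beta target genes as a list did not stand apart. Of 29 tested, 0 were higher and 2 lower at an unadjusted p below 0.05 (6.9% of the list against 11.9% of all genes), with a median of 0.07 and 21 of 29 above 0. Ccn2, a matricellular protein, stood at 0.68 (SE 0.33) with ranges of 8.01 to 32.2 CPM and 5.14 to 28.1 CPM, and 23.2% of its exon bases overlap a gene on the opposite strand, so its counts are uncertain. Both lower genes were Bhlhe40, a transcriptional repressor also tied to the clock (-0.75, SE 0.22, DESeq2 adjusted p = 0.0474), and the protease inhibitor Timp1 (-0.89, SE 0.35). Id1 stood at 0.38 (SE 0.18). In the list of 27 activin, GDF and BMP genes, 1 was higher and 1 lower: the activin subunit Inhbb (0.28, SE 0.13, and 0.17 without transgenic control replicate 1) and the activin-binding protein Fstl3 (-0.56, SE 0.21, with 47.3% of its exon bases overlapping an opposite-strand gene), while Bmp2 stood at 0.30 (SE 0.15). Gdf15, a stress hormone, was near the detection limit (medians 0.945 and 0.378 CPM, log2 0.68, SE 0.43).

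The 8 genes with the smallest p among those higher in transgenic tissue included enzymes of mitochondrial, peroxisomal and cytosolic metabolism and 1 insulin receptor substrate. Chdh, the mitochondrial choline dehydrogenase (chromosome 14, 30008901 to 30040468), ranged from 64.7 to 96.6 CPM with a median of 73.8 CPM in transgenic tissue and from 42.2 to 66.7 CPM with a median of 47.9 CPM in wild type. Its log2 difference was 0.63 (SE 0.10), with nearly the same size on the 2 diets (0.62 and 0.65). Aco1, the cytosolic aconitase that doubles as iron regulatory protein 1, ranged from 247 to 310 CPM against 199 to 240 CPM, so no library of one genotype overlapped the other (log2 0.34, SE 0.06). Stab1, a scavenger receptor of sinusoidal endothelium and macrophages, also showed no overlap among the 12 libraries, at 95.1 to 137 CPM against 73.4 to 87.0 CPM (log2 0.49, SE 0.09). Irs2, which couples the insulin receptor to downstream kinases (chromosome 8), was the third gene of the 8 with no overlap, at 120 to 167 CPM against 71.3 to 113 CPM. Its log2 difference was 0.68 (SE 0.12), with 0.94 on control diet and 0.42 on high-fat diet. All 8 had an edgeR adjusted p of 0.168 and were called by DESeq2, and within each diet none of them overlapped between genotypes. Of all genes, DESeq2 called 0.689% higher, 0.864% were higher without overlap within either diet and 0.224% without overlap among the 12 libraries. The 8 were picked for a small p on the same libraries, so these traits describe the selected genes and are not separate support.

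The other 4 of these 8 were of like size. Aldh4a1, which completes mitochondrial proline breakdown, had medians of 101 and 70.1 CPM (log2 0.52, SE 0.10), and 32.5% of its exon bases overlap another gene model on the same strand, so its counts are uncertain. Pex6, an ATPase that recycles the peroxisomal import receptor, had medians of 85.5 and 63.0 CPM (0.38, SE 0.07). Fmnl3, a formin that builds actin filaments, had medians of 33.9 and 23.4 CPM (0.49, SE 0.09), and its difference was 0.68 on control diet and 0.30 on high-fat diet. Tmem94 had medians of 61.6 and 43.6 CPM (0.45, SE 0.08).

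The 8 genes with the smallest p among those lower in transgenic tissue were led by Anxa1, which encodes annexin A1, a phospholipid-binding protein that limits leukocyte recruitment. Anxa1 (chromosome 19, from 20373434) ranged from 246 to 475 CPM with a median of 348 CPM in transgenic tissue and from 454 to 694 CPM with a median of 527 CPM in wild type. Its means were 266 ± 17.1 CPM against 488 ± 34.4 CPM on control diet and 446 ± 28.4 CPM against 618 ± 81.9 CPM on high-fat diet (n = 3 each, ± SD). The log2 difference was -0.67 (SE 0.10, edgeR unadjusted p = 1.17e-05, adjusted p = 0.168, DESeq2 adjusted p = 1.99e-07). It was the smallest p of all genes, and without wild-type high-fat replicate 3 Anxa1 alone passed edgeR's test (log2 -0.74, adjusted p = 0.0382). On control diet the difference was -0.87 and on high-fat diet -0.48. In the authors' deposited tables, Anxa1 was 1 of 2 genes below an adjusted p of 0.05 on both diets, beside the predicted gene Gm33103.

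Tceal8 and Blzf1 were the pair among these 8 lower genes with no overlap among the 12 libraries. Tceal8, a small protein related to elongation factors, ranged from 37.7 to 45.9 CPM against 49.0 to 60.1 CPM (log2 -0.40, SE 0.07), and the Golgi protein gene Blzf1 from 19.2 to 23.4 CPM against 24.1 to 29.3 CPM (-0.33, SE 0.06). Maoa, the mitochondrial monoamine oxidase that degrades noradrenaline, ranged from 46.4 to 71.0 CPM against 62.5 to 90.8 CPM (-0.42, SE 0.08). Slc39a8, a zinc and manganese importer, had the largest difference of the 8, at 24.5 to 56.0 CPM against 52.2 to 98.7 CPM (-0.85, SE 0.17), with -0.66 on control diet and -1.04 on high-fat diet. Its genotypes overlapped on control diet and not on high-fat diet. Itgbl1, a secreted integrin-like protein, had medians of 6.04 and 10.5 CPM (-0.77, SE 0.16), and the drug efflux transporter Abcb1b 17.5 and 22.8 CPM (-0.40, SE 0.08). Ccl7, a chemokine that draws monocytes, stood at 1.71 ± 0.247 CPM against 3.45 ± 0.888 CPM on control diet and 8.45 ± 0.989 CPM against 12.2 ± 1.18 CPM on high-fat diet (± SD, 3 libraries each). Its log2 difference was -0.75 (SE 0.15, edgeR adjusted p = 0.194), and within each diet all transgenic libraries lay below all wild-type libraries. The edgeR adjusted p of the 8 ran from 0.168 to 0.194, and DESeq2 called all of them. Of all genes, DESeq2 called 0.495% lower, and 0.187% were lower without overlap among the 12 libraries. These 8 were likewise picked for a small p on the same libraries, so such traits are not separate support.

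**Figure D1:**
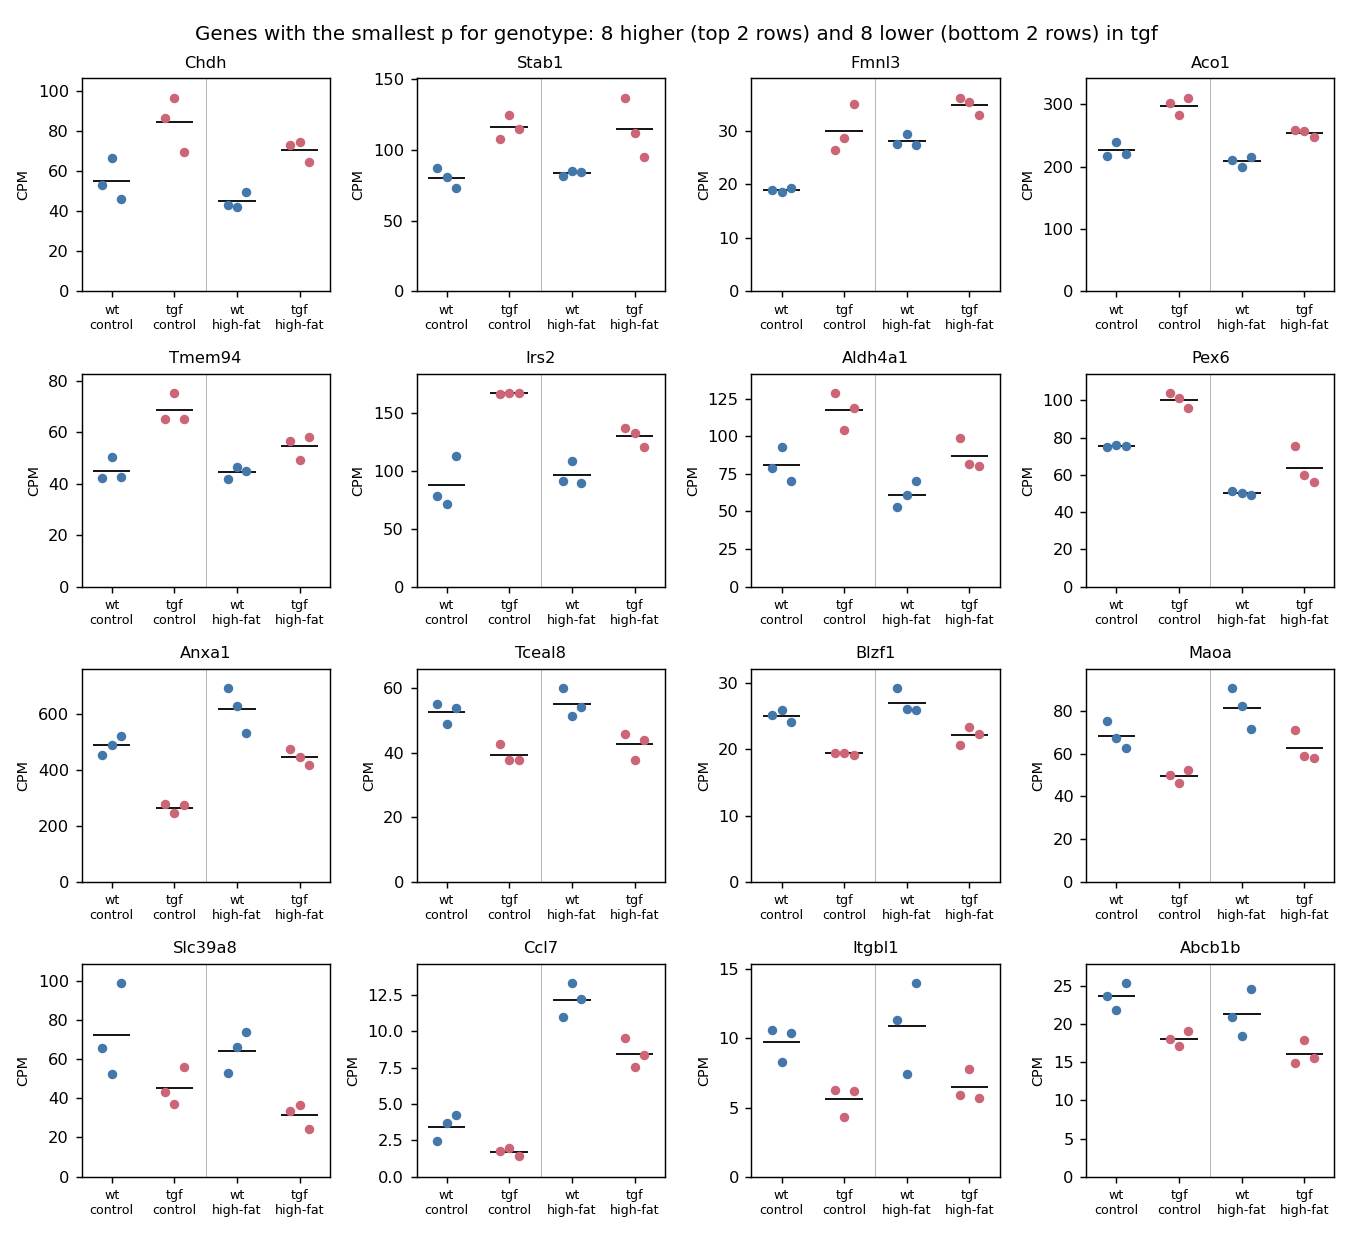
CPM in each of the 12 libraries for the 16 genes with the smallest p (points, 3 per group, with the group mean as a line), 8 higher in transgenic (tgf) tissue in the top rows and 8 lower in the bottom rows. For Chdh the transgenic points lie between 64.7 and 96.6 CPM, and within each diet they lie above the wild-type (wt) points, as they do for the other 7 higher genes. All genes shown were picked for a small p on these libraries, so the separation is not separate support.

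Genes of fatty acid oxidation were the list with the most members at a small p. Of 21 tested, 12 were higher and 0 lower at an unadjusted p below 0.05 (57.1% against 11.9% of all genes), 20 of 21 lay above 0 and the median log2 difference was 0.36. DESeq2 called 4 of them higher. The median was 0.20 on control diet and 0.50 on high-fat diet. Without transgenic high-fat replicate 1, whose list mean of 7.33 was the highest of all libraries, 7 were higher at that p and the median was 0.20. Without the 2 epithelium-rich libraries 7 were higher at that p with a median of 0.35, and without the 4 libraries rich in epithelium or muscle 13 were higher at that p and the median was 0.48.

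Ppara, the nuclear receptor that switches on fatty acid oxidation genes, ranged from 20.7 to 55.7 CPM in transgenic and 12.2 to 27.2 CPM in wild-type tissue, and 5 of 6 transgenic libraries lay above the wild-type maximum (log2 0.93, SE 0.24, DESeq2 adjusted p = 0.0144). Its coactivator Ppargc1b ranged from 9.06 to 15.6 CPM against 7.94 to 9.09 CPM (0.64, SE 0.13, DESeq2 adjusted p = 0.00225). The Ppargc1b difference was 0.66 on control diet and 0.63 on high-fat diet, whereas the related Ppargc1a, known for cold-induced mitochondrial biogenesis, stood at 0.38 (SE 0.30). Among the enzymes, the peroxisomal Ehhadh had medians of 70.0 and 51.6 CPM (0.52, SE 0.12) and the long-chain dehydrogenase Acadl stood at 0.64 (SE 0.17), both called by DESeq2. The carnitine shuttle members Cpt2 and Slc25a20 stood at 0.42 and 0.49 (Slc25a20 at 0.31 without transgenic high-fat replicate 1), and Cpt1a, which controls entry of fatty acids into mitochondria, at -0.02. Pdk4, a kinase that diverts pyruvate from oxidation and a known target of Ppara, ranged from 108 to 303 CPM in transgenic tissue and from 32.4 to 93.0 CPM in wild type. No library overlapped (log2 1.32, SE 0.30, edgeR adjusted p = 0.194, DESeq2 adjusted p = 0.0198), with 0.95 on control diet and 1.69 on high-fat diet.

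Respiratory chain genes encoded in the nucleus shared the direction at a smaller size. All 27 tested lay above 0, with 7 higher and 0 lower at an unadjusted p below 0.05 and a median of 0.22, and DESeq2 called 0. The median was 0.10 on control diet and 0.32 on high-fat diet, and without transgenic high-fat replicate 1 it was 0.11 with 2 genes at that p. Without wild-type control replicate 3, wild-type high-fat replicate 1 or wild-type high-fat replicate 2 there were 3 genes, and without transgenic control replicate 3 there were 14 and without wild-type control replicate 2 there were 13. Examples were the complex II subunit Sdhc (medians 184 and 136 CPM, log2 0.32, SE 0.10) and the ATP synthase subunit Atp5b (1740 and 1300 CPM, 0.34, SE 0.12). Of 13 mitochondrially encoded genes, 12 lay above 0 with a median of 0.35, and 1 was higher at that p, ATP6 (1.03, SE 0.41). Without transgenic control replicate 2, which is epithelium-rich, ATP6 stood at 0.45 and the list median at 0.21. CYTB stood at 0.42 (SE 0.21) and ND6 at 0.35 (SE 0.19), and mitochondrial transcripts took 4.56% to 11.9% of counts across the libraries.

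Thermogenic genes, which mark brown and beige adipocytes, had the largest median among the metabolic lists. Of 18 tested, 4 were higher and 0 lower at an unadjusted p below 0.05, and the median was 0.62, with 0.13 on control diet and 0.73 on high-fat diet. Without transgenic high-fat replicate 1 the median was 0.30 with 2 genes at that p, without transgenic control replicate 2 it was 0.35 with 3, and without transgenic control replicate 3 there were 7. Ucp1, the uncoupling protein that defines thermogenic adipocytes, ranged from 1.54 to 228 CPM in transgenic and 0.0879 to 92.6 CPM in wild-type tissue, and the difference was smaller than its standard error (log2 1.22, SE 1.29). The transgenic maximum was high-fat replicate 1, and the next highest library was wild type. Ebf2, a factor of the brown and beige lineage, stood at 0.27 (SE 0.08), and its genotypes did not overlap within either diet. Elovl3, a fatty acid elongase of brown fat, stood at 1.44 (SE 0.57) at medians of 2.39 and 0.77 CPM.

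Catabolism of branched-chain amino acids had 7 of 20 genes higher and 0 lower at an unadjusted p below 0.05, with a median of 0.16 on the log2 scale and 18 of 20 above 0. The mitochondrial aminotransferase Bcat2, which starts the pathway, had medians of 212 and 143 CPM (0.52, SE 0.12, DESeq2 adjusted p = 0.0116), though 15.9% of its exon bases overlap a gene on the opposite strand. The dehydrogenase Ivd stood at 0.33 (SE 0.09) and the carboxylase subunit Mccc1 at 0.30 (SE 0.11). Without transgenic high-fat replicate 1 or without the 2 epithelium-rich libraries 3 of the 20 were higher at that p, and 4 were without wild-type high-fat replicate 2. Without the 2 muscle-rich libraries 12 were higher at that p.

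Lipolysis genes included 1 of the clearest members, Pnpla2, the adipose triglyceride lipase that removes the first fatty acid from stored fat. Pnpla2 ranged from 2970 to 4710 CPM with a median of 3580 CPM in transgenic tissue and from 2160 to 3630 CPM with a median of 2630 CPM in wild type, and within each diet the genotypes did not overlap. Its log2 difference was 0.42 (SE 0.10, edgeR adjusted p = 0.194, DESeq2 adjusted p = 0.000537). Prkaca, the protein kinase A subunit that activates lipolysis, stood at 0.28 (SE 0.07, DESeq2 adjusted p = 0.0263). The hormone-sensitive lipase Lipe stood at 0.00 (SE 0.10), the droplet coat protein Plin1 at 0.16 (SE 0.08) and the corticotropin receptor Mc2r at -0.35 (SE 0.12). Over the list of 16, 3 were higher and 1 lower at an unadjusted p below 0.05, with a median of 0.15.

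Insulin signalling genes had 6 of 23 higher and 0 lower at an unadjusted p below 0.05, with a median of 0.06. Beside Irs2 these included the insulin receptor Insr (medians 104 and 91.4 CPM, log2 0.21, SE 0.08) and Pck1, the enzyme of glyceroneogenesis that supports re-esterification of fatty acids. Pck1 had medians of 2730 and 1870 CPM (0.46, SE 0.13, DESeq2 adjusted p = 0.0255), with 0.49 on control diet and 0.42 on high-fat diet. The insulin-responsive glucose transporter Slc2a4 stood at -0.04 (SE 0.18). De novo lipogenesis genes differed in direction between diets, with a median of -0.43 on control diet and 0.38 on high-fat diet and -0.01 when pooled, and 1 of 20 was higher at that p, the mitochondrial acetyl-CoA carboxylase Acacb (0.86, SE 0.29). Fasn, the fatty acid synthase, ranged from 2090 to 19400 CPM in wild type and from 4490 to 9230 CPM in transgenic tissue (0.17, SE 0.44). Acly stood at -0.49 (SE 0.60) and the desaturase Scd1 at -0.00 (SE 0.24).

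Genes of adipocyte identity were mixed. Of 19 tested, 2 were higher and 1 lower at an unadjusted p below 0.05, with a median of 0.14. Pparg, the master regulator of adipogenesis, was the lower one, at 211 to 272 CPM against 270 to 398 CPM (log2 -0.36, SE 0.10), and its difference was -0.57 on control diet and -0.15 on high-fat diet. Cebpa, its partner factor, stood at 0.14 (SE 0.10), and the adiponectin receptor Adipor2 at 0.22 (SE 0.08). Among 16 adipokines, 1 was higher and 3 lower at that p. Angptl4, an inhibitor of lipoprotein lipase and a further target of Ppara, had medians of 858 and 682 CPM (0.44, SE 0.12, DESeq2 adjusted p = 0.0222). The chemoattractant Rarres2 stood at -0.51 (SE 0.14, DESeq2 adjusted p = 0.0481), with 33.6% of its exon bases overlapping a gene on the opposite strand. Adiponectin (Adipoq) stood at -0.19 (SE 0.11), resistin (Retn) at 0.11 (SE 0.14) and Fgf21 at -0.41 (SE 0.29) near 1 CPM.

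**Figure D2:**
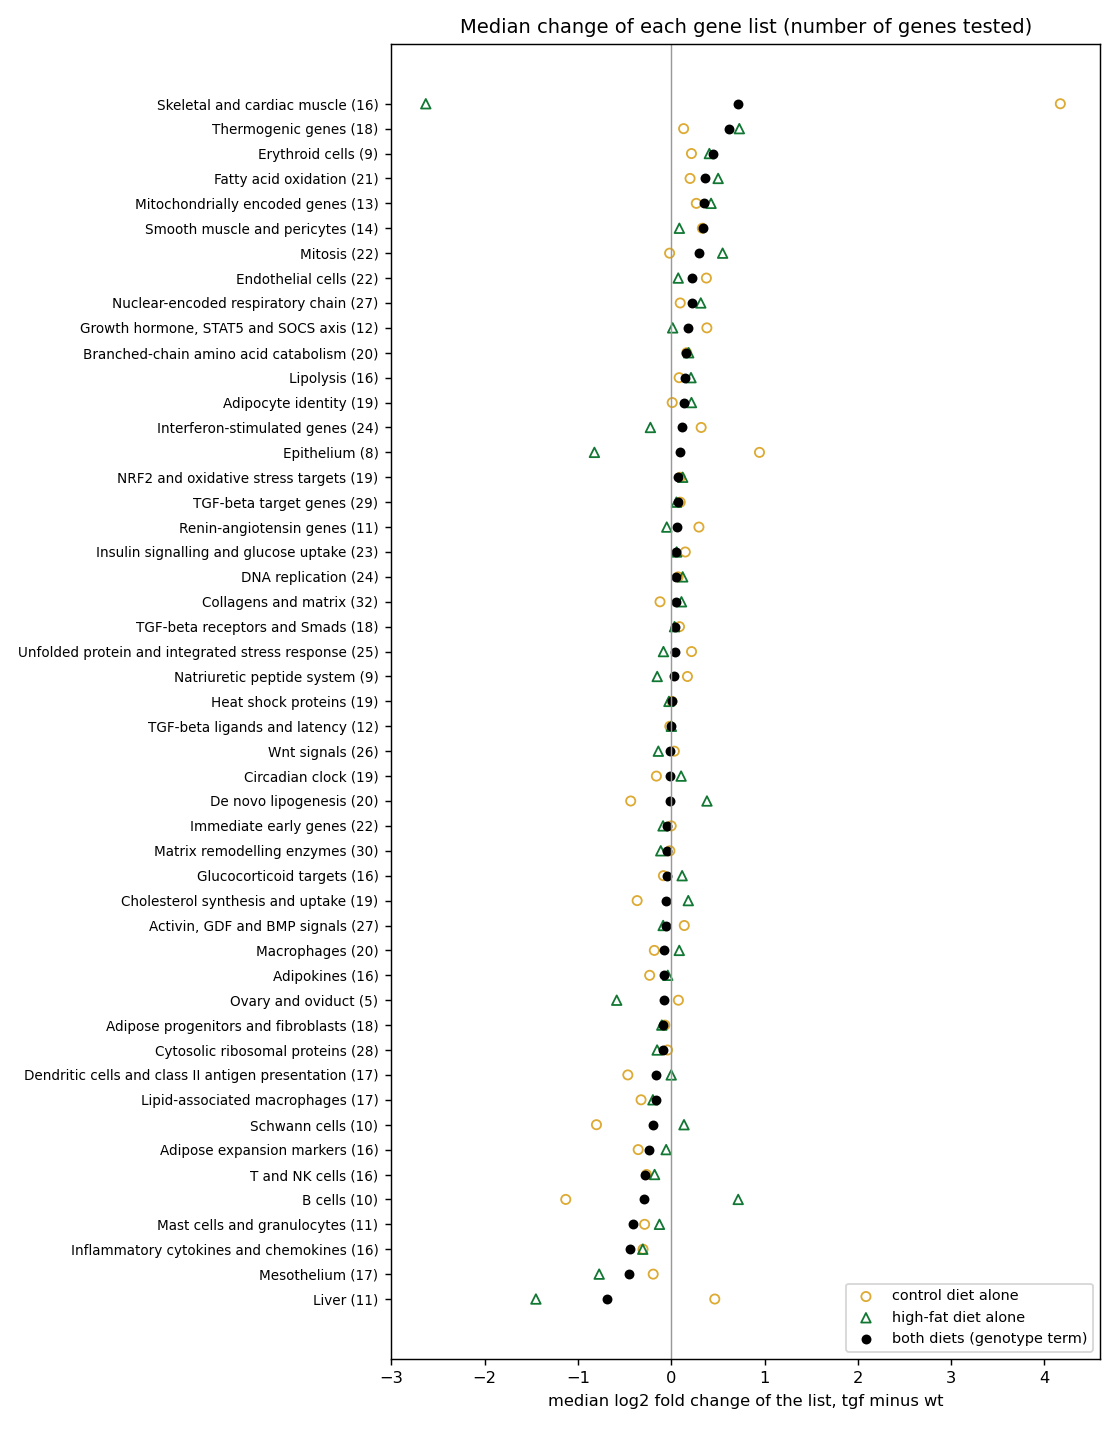
Median log2 difference, transgenic minus wild type, of each gene list with at least 5 tested genes, for both diets together (filled black points), control diet alone (open circles) and high-fat diet alone (open triangles). The medians of fatty acid oxidation (0.20 and 0.50) lie on the same side on the 2 diets, and those of muscle genes (4.17 and -2.63) lie far apart on opposite sides.

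Genes that mark adipose expansion had different values on the 2 diets. Of 16 tested, 0 were higher and 7 lower at an unadjusted p below 0.05 (43.8% of the list against 11.9% of all genes). Like the other lists, this list was chosen with earlier results of these data known. Its pooled median was -0.24, made of -0.35 on control diet and -0.05 on high-fat diet. Leaving out single libraries gave 3 to 8 lower genes, with 3 without transgenic control replicate 2 or 3 or wild-type control replicate 3 and 4 without transgenic control replicate 1 or transgenic high-fat replicate 1. Without the 4 epithelium-rich or muscle-rich libraries there were 3. Npr3, the natriuretic peptide clearance receptor, was at 554 to 619 CPM in transgenic and 1070 to 1140 CPM in wild-type libraries on control diet, and at 1200 to 1590 CPM and 1580 to 1670 CPM on high-fat diet. The pooled log2 difference of -0.54 (SE 0.14, edgeR adjusted p = 0.222, DESeq2 adjusted p = 0.0155) averaged -0.92 and -0.15. The interaction had an unadjusted p of 0.000768 and did not pass adjustment (edgeR adjusted p = 0.618), and over all genes 929 (5.61%) had an interaction at an unadjusted p below 0.05 and 0 passed.

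Lep, which encodes the satiety hormone leptin, stood at 745 ± 114 CPM in transgenic and 1600 ± 351 CPM in wild-type tissue on control diet, and at 2330 ± 1000 CPM and 2300 ± 416 CPM on high-fat diet (± SD, 3 libraries each). Its pooled value of -0.54 (SE 0.24) thus held a difference of -1.09 on one diet and 0.01 on the other. Fgf13, an intracellular fibroblast growth factor homologue, stood at 21.7 ± 0.556 CPM against 47.3 ± 6.93 CPM on control diet and at 95.5 ± 10.9 CPM against 89.6 ± 18.4 CPM on high-fat diet (± SD, 3 libraries each), with a pooled log2 of -0.50 (SE 0.20). Sfrp5, a secreted Wnt inhibitor of adipocytes, was -1.64 and -0.31 on the 2 diets (pooled -0.97, SE 0.32), and the imprinted gene Mest -1.22 and -0.03 (pooled -0.63, SE 0.37, with 23.1% of its exon bases overlapping Copg2 on the opposite strand). Cav2, a caveolar coat protein, was -0.32 and -0.17 (pooled -0.24, SE 0.09). For the natriuretic system itself, 1 of 9 tested genes was lower at an unadjusted p below 0.05, which was Npr3, and the peptide genes Nppa, Nppb and Nppc did not pass the filter. The signalling receptors Npr1 and Npr2 stood at 0.03 (SE 0.10) and 0.20 (SE 0.11), and the convertase Furin at 0.21 (SE 0.12). For Npr1, 11.7% of exon bases overlap a gene on the opposite strand.

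Clstn3 and S100b, a pair expressed in thermogenic fat in which calsyntenin 3b aids S100b secretion to sympathetic nerves, also had unlike values on the 2 diets. Clstn3 stood at 27.4 ± 5.32 CPM against 24.2 ± 8.94 CPM on control diet and at 46.5 ± 15.6 CPM against 20.4 ± 3.40 CPM on high-fat diet (± SD, 3 libraries each), with a pooled log2 of 0.69 (SE 0.24). S100b stood at 3.05 ± 0.893 CPM against 8.38 ± 2.86 CPM on control diet and at 15.2 ± 5.36 CPM against 8.82 ± 1.12 CPM on high-fat diet (± SD, 3 libraries each). Its pooled log2 of -0.28 (SE 0.38) describes neither diet, where the differences were -1.45 and 0.78. Transgenic high-fat replicate 1 had the highest mean of the thermogenic list (4.16). Without this library the pooled log2 was 0.52 for Clstn3 and -0.55 for S100b.

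**Figure D3:**
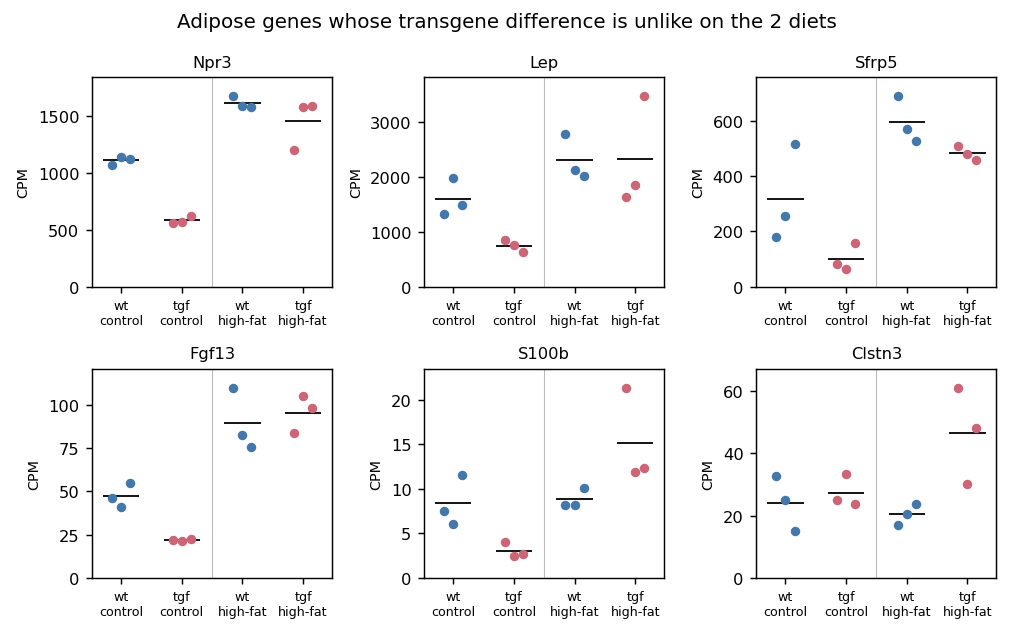
CPM in each library of 6 adipose genes (points, 3 per group, with the group mean as a line) by genotype and diet. For Npr3 the 3 transgenic libraries on control diet lie at 554 to 619 CPM, below all other libraries, and on high-fat diet the transgenic (1200 to 1590 CPM) and wild-type (1580 to 1670 CPM) ranges overlap.

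Inflammatory signals had mostly negative differences. Of 16 tested cytokine and chemokine genes, 0 were higher and 5 lower at an unadjusted p below 0.05, and the median was -0.44, while the median was -0.302 on control diet alone and -0.305 on high-fat diet alone. Beside Ccl7 these included Ccl2, the main monocyte chemoattractant, at 2.00 ± 0.89 CPM against 4.32 ± 1.07 CPM on control diet and 14.5 ± 3.56 CPM against 18 ± 3.10 CPM on high-fat diet (± SD, 3 libraries each). Its log2 difference was -0.66 (SE 0.23), and that of the acute-phase gene Saa3 was -1.11 (SE 0.38). Without transgenic control replicate 3 or transgenic high-fat replicate 1 there were 3 lower genes. Without wild-type control replicate 1 the list median was -0.24, and without the 4 epithelium-rich or muscle-rich libraries it was -0.19 with 2 lower genes. The cytokine genes Il1b and Il6 did not pass the filter.

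Macrophage genes did not share a clear direction. Of 20, 1 was higher and 3 lower at an unadjusted p below 0.05, with a median of -0.07. Adgre1, which encodes the macrophage marker F4/80, stood at -0.35 (SE 0.18) and the lysosomal marker Cd68 at 0.08 (SE 0.19). Lyve1, a hyaluronan receptor of perivascular macrophages and lymphatic endothelium, was the higher gene at 0.42 (SE 0.13), while the lysozyme gene Lyz2 (-0.40, SE 0.16) and the scavenger receptor Cd163 (-0.22, SE 0.09) were lower. Of 17 genes of lipid-associated macrophages, 16 lay below 0 and 2 were lower at that p, with a median of -0.17. These 2 were the elastase Mmp12, at 0.843 to 23.3 CPM against 6.70 to 104 CPM (-1.48, SE 0.54, and -0.73 without wild-type high-fat replicate 1), and the cathepsin Ctsl (-0.48, SE 0.16, with 26.8% of exon bases overlapping opposite-strand genes). Itgax, the integrin CD11c, stood at -0.50 (SE 0.24).

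Lymphocyte and granulocyte genes had low levels, with list sums of at most 90.7 CPM in any library. Of 16 T and NK cell genes 14 lay below 0 and 1 was lower at an unadjusted p below 0.05, Cd2 (medians 2.24 and 3.22 CPM, log2 -0.62, SE 0.18), with Il7r at -0.72 (SE 0.37) and Cd3d at -0.69 (SE 0.40). Of 10 B cell genes 0 were at that p, and their median was -1.13 on control diet and 0.72 on high-fat diet, as for Ms4a1 (-0.51, SE 0.52), Cd22 (-0.43, SE 0.44) and Jchain (-0.51, SE 0.56). Of 17 dendritic cell genes 2 were higher and 1 lower: the actin-bundling Fscn1 (0.39, SE 0.12), the lineage factor Zbtb46 (0.23, SE 0.10) and the lectin Cd209a (-0.51, SE 0.17). Of 11 mast cell and granulocyte genes 10 lay below 0, led by the mast cell protease Cma1 (-0.70, SE 0.31), with Mcpt4 at -0.52 (SE 0.25) and Siglecf at -0.83 (SE 0.55).

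Endothelial genes had mostly positive differences in transgenic tissue. Of 22 tested, 9 were higher and 0 lower at an unadjusted p below 0.05 (40.9% against 11.9% of all genes). Of the 22, 19 lay above 0 and the median was 0.22, with 0.38 on control diet and 0.08 on high-fat diet. Eng, the endothelial TGF-beta co-receptor named above, was at 182 to 258 CPM against 107 to 199 CPM. The transcription factor Sox18 (log2 0.46, SE 0.13) and the tight-junction claudin Cldn5 (0.39, SE 0.11) were among the 9, and the growth factor receptor Kdr stood at -0.04. DESeq2 called 0 of the 22, and without the 4 epithelium-rich or muscle-rich libraries 4 were higher at that p and the median was 0.10. Smooth muscle and pericyte genes had 3 of 14 higher at that p with a median of 0.34, led by the smooth muscle myosin Myh11 (0.73, SE 0.25) and Lmod1 (0.59, SE 0.23). Myh11 differed by 1.33 on control diet and 0.13 on high-fat diet, while the pericyte gene Rgs5 (0.33, SE 0.13) differed by 0.19 and 0.48.

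Mesothelial genes, which mark the serous lining of visceral fat, had mostly negative differences. Of 17 tested, 0 were higher and 7 lower at an unadjusted p below 0.05 (41.2% against 11.9% of all genes). The median was -0.45, with -0.19 on control diet and -0.77 on high-fat diet. Muc16, a surface mucin of mesothelium, ranged from 9.17 to 49.2 CPM with a median of 24.1 CPM in transgenic and from 25.9 to 92.0 CPM with a median of 44.2 CPM in wild-type tissue (log2 -0.90, SE 0.22, DESeq2 adjusted p = 0.00836). Slpi, a secreted protease inhibitor, stood at 17.9 ± 3.59 CPM against 58.9 ± 12 CPM on high-fat diet and at 20.6 ± 4.09 CPM against 30.8 ± 16.3 CPM on control diet (SD, n = 3 each), with a pooled log2 of -1.15 (SE 0.28, edgeR adjusted p = 0.194, DESeq2 adjusted p = 0.00541). Rspo1, a Wnt agonist, stood at -0.49 (SE 0.15). The list median was -0.25 without transgenic high-fat replicate 3, which had the lowest list mean of the 12 libraries. Without transgenic control replicate 2 there were 11 lower genes at that p, and 3 genes were lower at that p without the 4 epithelium-rich or muscle-rich libraries.

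**Figure D4:**
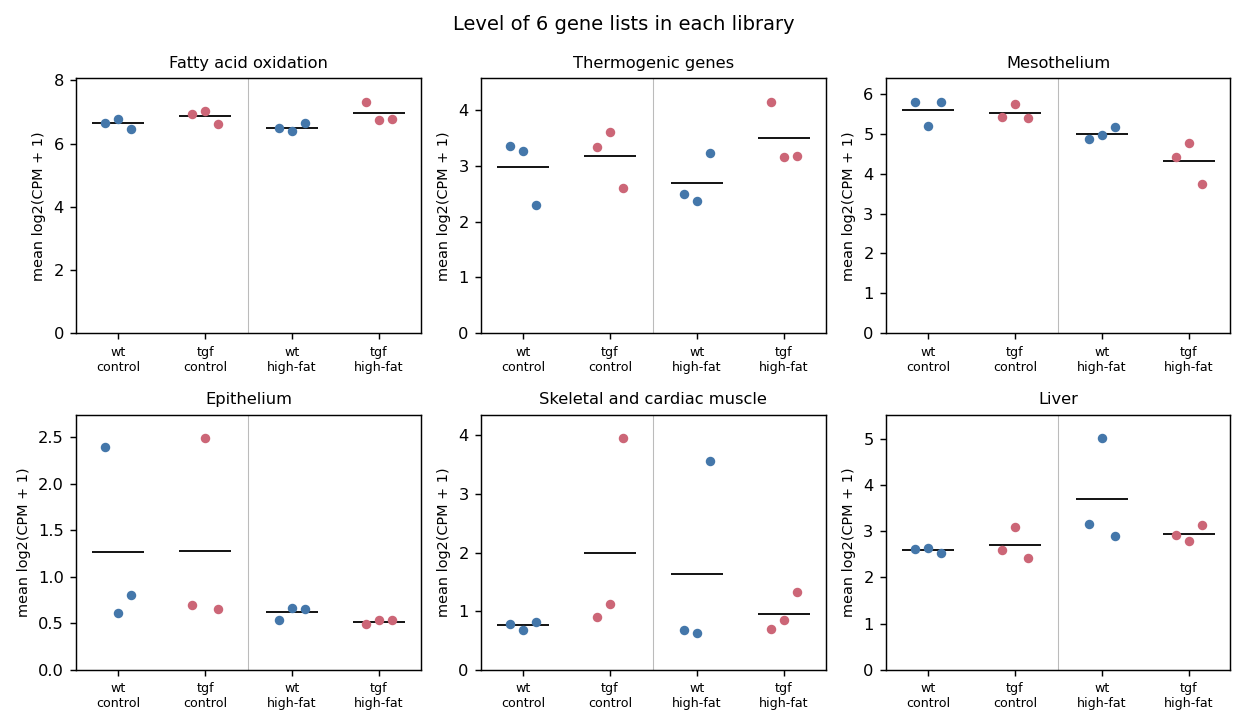
Mean log2(CPM + 1) of 6 gene lists in each library (points, 3 per group, with the group mean as a line). Transgenic high-fat replicate 1 is highest for fatty acid oxidation (7.33) and thermogenic genes (4.16), transgenic high-fat replicate 3 is lowest for mesothelium (3.75), and the lower panels show the libraries with epithelial, muscle or liver transcripts.

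Progenitor and matrix genes gave few differences. Of 18 progenitor and fibroblast genes, 0 were higher and 3 lower at an unadjusted p below 0.05: Dpp4, which marks interstitial progenitors (medians 54.4 and 76.9 CPM, log2 -0.51, SE 0.11, DESeq2 adjusted p = 0.00836), the semaphorin Sema3c (-0.37, SE 0.10, DESeq2 adjusted p = 0.0354) and decorin, Dcn (-0.28, SE 0.12). Of 32 collagen and matrix genes, 2 were higher and 2 lower with a median of 0.05. The fibrillar collagens Col1a1 and Col3a1 stood at 0.07 (SE 0.11) and 0.24 (SE 0.16), with Col1a1 ranges of 428 to 833 CPM and 474 to 790 CPM. Elastin (Eln) was the highest of the list, at 94.7 to 199 CPM against 57.1 to 119 CPM (0.69, SE 0.19, DESeq2 adjusted p = 0.0239), and Col8a1 stood at 0.41 (SE 0.11) and Col6a5 at -0.45 (SE 0.19).

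Matrix-remodelling enzymes had 1 of 30 higher and 7 lower at an unadjusted p below 0.05, with a median of -0.04. The aggrecanases went opposite ways, Adamts5 at 127 to 498 CPM against 247 to 634 CPM (log2 -0.76, SE 0.19, DESeq2 adjusted p = 0.0111) and Adamts4 at medians of 5.68 and 2.69 CPM (1.08, SE 0.31, DESeq2 adjusted p = 0.0409). Without wild-type control replicate 3 the list had 3 higher and 3 lower, and without transgenic control replicate 2, transgenic high-fat replicate 1 or wild-type high-fat replicate 2 it had 4 lower. The urokinase gene Plau stood at -0.35 (SE 0.12). Of 26 Wnt genes, 1 was higher and 6 lower at that p, with a median of -0.01, and the lower ones included Sfrp5, the feedback inhibitor Nkd1 (-0.37, SE 0.11) and the ligand Wnt5b (-0.56, SE 0.20). Without the 4 epithelium-rich or muscle-rich libraries 0 were higher and 2 lower, and without transgenic control replicate 2 or wild-type control replicate 1 there were 0 higher and 3 lower.

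Among lists for other tissues, several followed single libraries. Muscle genes had a pooled median of 0.72 that combined 4.17 on control diet and -2.63 on high-fat diet, with 0 of 16 at an unadjusted p below 0.05, as for Myh2 (log2 1.77, SE 2.56) and Actc1 (0.54, SE 0.74). Of 8 epithelial genes 2 were higher and 2 lower at that p, and Krt5 (4.74, SE 1.83) was at 142 CPM in transgenic control replicate 2 and at most 5.28 CPM elsewhere. Without that library Krt5 stood at -1.19 and Trp63, at 1.36 (SE 0.56) in all libraries, at 0.40. Cldn3 stood at -1.29 (SE 0.36), and at -0.81 without wild-type control replicate 1. Of 11 liver genes 1 was higher, Cyp2e1, which adipocytes also express (0.87, SE 0.26), and 4 lower, among them Gc (-3.75, SE 1.17) and Apoa2 (-2.46, SE 0.80), at 13.6 and 9.54 CPM in wild-type high-fat replicate 2 and at most 0.756 and 2.32 CPM elsewhere. Without that library they stood at -1.02 and -1.39. Of 10 Schwann cell genes 0 were at that p, with Prx at -0.71 (SE 0.41) and Mbp at -0.37 (SE 0.18). Of 9 erythroid genes 2 were higher, Alas2 (0.51, SE 0.17, with 15.5% of exon bases overlapping opposite-strand genes) and Hba-a1 (0.45, SE 0.18), with Hbb-bs at 0.55 (SE 0.26). Of 5 ovary and oviduct genes 0 were at that p (Cyp11a1 -0.94, SE 0.47, Star -0.27, SE 0.22, Ovgp1 0.27, SE 0.35, with 28.7% of exon bases overlapping another gene model), and the 1 tested pancreatic gene, Cela1, was lower at that p (-0.47, SE 0.20).

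State and stress lists are given with the share of their genes at an unadjusted p below 0.05 in either direction, against 11.9% of all genes. Glucocorticoid targets had 4 of 16 higher and 1 lower (31.2%), with a median of -0.05, and held Pdk4, Angptl4 and the mTOR inhibitor Ddit4 (log2 0.72, SE 0.26). Without transgenic high-fat replicate 3 it had 2 higher and 2 lower, and without wild-type high-fat replicate 2 or 3 it had 3 of each. Of 12 growth hormone axis genes 3 were higher (25%): Stat5a, the mediator of growth hormone signals (0.37, SE 0.09, DESeq2 adjusted p = 0.0356), Igfals (0.38, SE 0.16) and Igf1 (0.29, SE 0.13). Of 19 oxidative stress genes 3 were higher (15.8%): catalase, Cat (medians 1000 and 807 CPM, 0.28, SE 0.08, DESeq2 adjusted p = 0.0159), Gclm (0.22, SE 0.08) and Gpx3 (0.56, SE 0.24, and 0.30 without transgenic control replicate 3). Of 25 unfolded protein response genes 3 were higher and 1 lower (16%), the higher being Dnajb9 (0.26, SE 0.08), Calr (0.24, SE 0.08) and Sesn2 (0.28, SE 0.11). Of 11 renin-angiotensin genes 3 were higher (27.3%), among them Lnpep (0.28, SE 0.09) and Ace (0.22, SE 0.09).

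Proliferation and housekeeping lists had few genes at a small p. Their shares at an unadjusted p below 0.05 lay near or below the 11.9% of all genes. These were 13.6% for mitosis, 12.5% for replication, 12.5% for interferon-stimulated, 10.5% for clock and 9.09% for immediate early genes. Of 22 mitosis genes 3 were higher at an unadjusted p below 0.05, with 20 above 0, and Cdc20 (log2 0.54, SE 0.23), Plk1 (0.67, SE 0.28) and Bub1 (0.75, SE 0.35) all had medians under 2 CPM. Of 24 replication genes 2 were higher, Mcm5 (0.41, SE 0.16) and Pclaf (0.51, SE 0.23), and 1 lower, Ccne1 (-0.51, SE 0.15). Of 24 interferon-stimulated genes 1 was higher and 2 lower, the lower being Ifit2 (-0.39, SE 0.15) and Gbp2 (-0.23, SE 0.10). Of 19 clock genes 2 were lower, Bhlhe40 and Bhlhe41 (-0.48, SE 0.19, with 19% of exon bases overlapping a gene on the opposite strand), with Rora at -0.11 (SE 0.08). Of 22 immediate early genes 1 was higher, Myc (0.45, SE 0.17), and 1 lower, Klf6 (-0.27, SE 0.11), with Klf4 at 0.25 (SE 0.12). Among 28 ribosomal protein, 19 heat shock and 19 cholesterol genes 0 were at that p. Below 0 lay 26 of the ribosomal protein, 9 of the heat shock and 15 of the cholesterol genes, with medians of -0.09, 0.01 and -0.06. Their leading members were Rps2 (0.15, SE 0.09), Rpl3 (-0.14, SE 0.09) and Rps28 (-0.17, SE 0.11), then Fkbp4 (0.22, SE 0.10), Hsp90aa1 (-0.15, SE 0.09) and Hsp90ab1 (0.15, SE 0.09), and Srebf2 (0.18, SE 0.09), Fdft1 (0.23, SE 0.12, with 18.3% of exon bases overlapping an opposite-strand gene) and Sc5d (-0.35, SE 0.20). The lipogenic genes Elovl5 and Aacs stood at 0.16 (SE 0.08) and 0.31 (SE 0.19).

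Because the 2 diets share no library, the transgene difference on each can be set against the other. On control diet alone 9.11% of genes, and on high-fat diet alone 7.98%, had an unadjusted edgeR p below 0.05, and 0 passed adjustment in either (smallest adjusted p 0.0904 and 0.147). Over the 16550 genes, 58.2% had the same sign on both diets, with a Pearson r of -0.0608 and a Spearman rho of 0.164 across genes, which are not independent replicates. Genes with a mean of at least 10 CPM had 61% with the same sign (r 0.116, rho 0.277). Among the 200 genes with the smallest p on control diet 65% had the same sign on high-fat diet, and among the 200 with the smallest p on high-fat diet 66% had the same sign on control diet. The 176 genes that differed by more than 2 log2 units on either diet had the same sign in 39.8%, that is, fewer than over all genes. Their Pearson r was -0.203, while the 16374 genes within 2 log2 units on both diets had an r of 0.116 and a rho of 0.176.

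Counts of genes whose libraries did not overlap within either diet were small. There were 143 genes (0.864%) with all transgenic libraries above all wild-type libraries on both diets and 137 (0.828%) with all below on both, while 51 (0.308%) separated in opposite directions. Across all 12 libraries, 37 genes (0.224%) were higher without overlap and 31 (0.187%) lower. In the authors' deposited tables, an adjusted p below 0.05 was held by 151 genes on control diet and 73 on high-fat diet, and 2 were in both. For Chdh the authors' deposited table gave log2 0.62 on control diet and 0.65 on high-fat diet, and for Irs2 0.94 and 0.43.

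**Figure D5:**
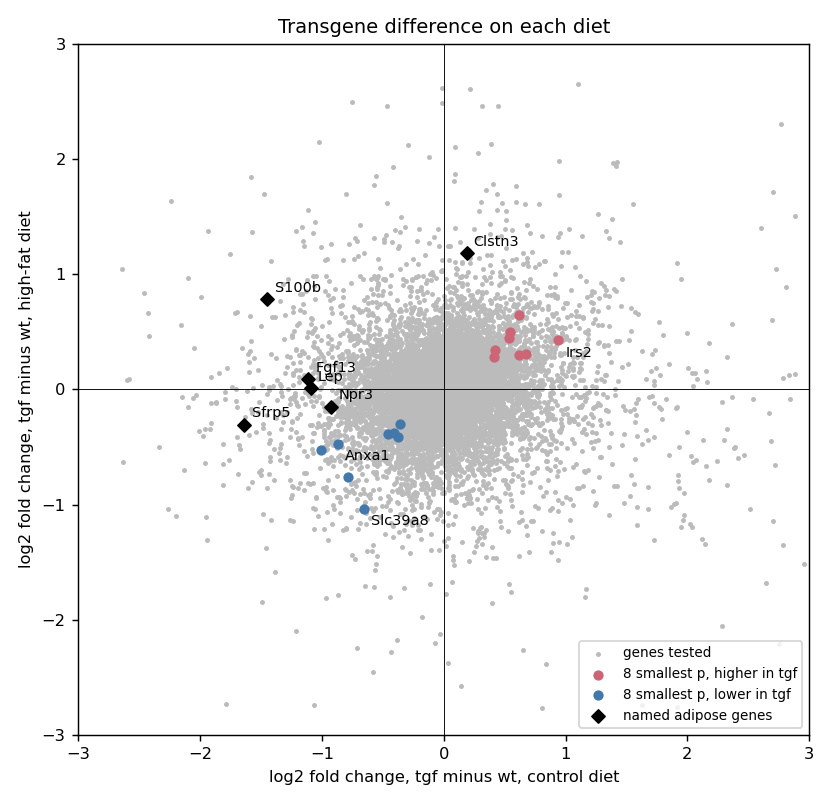
Log2 difference, transgenic minus wild type, on control diet (horizontal axis) against high-fat diet (vertical axis), 1 point per gene, with 73 of 16550 genes beyond the axes. The 8 higher (red) and 8 lower (blue) genes with the smallest pooled p lie in the quadrants where both diets have the same sign, while Lep and Fgf13 lie near 0 on the vertical axis and S100b has opposite signs on the 2 diets. Picking genes by a small pooled p favours the same sign on both diets, so the place of the red and blue genes is not separate support.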

How the data were processed

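RNA from visceral white adipose tissue was extracted with the Quick-RNA MiniPrep kit and sequenced on the DNBseq platform, per the labels' protocols. The deposited files hold raw counts per gene for each library, and the authors used HISAT2 2.2.0, HTSeq 2.0 and DESeq2 1.32.0 on mm10, per the submitters' processing notes. Neither annotation nor strand setting is given in the sources used here. Summary rows (16.8% to 21% of all reads per library) were removed. The authors' deposited comparison tables hold log2 fold changes and adjusted p-values for each diet.

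Genes with too few counts for the 4 groups were filtered (filterByExpr of edgeR 4.0.16, R 4.3.3, minimum count 10), library sizes were TMM-scaled, and genotype was tested with diet as a covariate by the quasi-likelihood F test (9 residual degrees of freedom, common biological coefficient of variation 21.1%, Benjamini-Hochberg threshold 0.05). DESeq2 1.42.0, limma 3.58.1 and other settings were alternatives. Standard errors are the log2 difference divided by the root of F. Coordinates come from the RefSeq table (GRCm38.p6, 96.7% of symbols matched). Members and gene lists were chosen with earlier results of these data known. Named genes are a panel, the 8 smallest p in each direction (mean of at least 1 CPM, no predicted genes) and up to 3 smallest p of each list, and some of these are not reported here.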

Additional observations from a re-analysis of the deposited data

Results flagged for a closer look

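The transgene effect on S100b differed between the diets, with an interaction of 2.24 on the log2 scale (SE 0.42). On control diet all 3 transgenic libraries (2.41 to 4.07 CPM) lay below the 3 wild-type libraries (6.04 to 11.6 CPM), and on high-fat diet all 3 (11.9 to 21.4 CPM) lay above them (8.18 to 10.1 CPM). S100b was flagged for this opposite separation, so the separation is not separate support. Over all genes, 51 of 16550 (0.308%) separated in opposite directions on the 2 diets. The interaction did not pass edgeR's quasi-likelihood test after Benjamini-Hochberg adjustment over all genes, where the smallest adjusted p was 0.557. S100b is also made by Schwann cells, whose marker list reached 3.74 in wild-type control replicate 1 and no more than 2.68 in the other libraries, and the part of those cells in the result was not tested.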

How the results depend on the processing

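The count of genes past edgeR's threshold was 0 with all 12 libraries and ranged from 0 to 1 when single libraries were left out, with 1 gene (Anxa1) without wild-type high-fat replicate 3. DESeq2 called 196 genes (114 higher, 82 lower), and edgeR with no filter on low counts called 24 of 32315 (15 higher, 9 lower), among them 14 of the 200 genes examined singly. In that unfiltered fit Anxa1, Chdh, Irs2 and Slc39a8 had the smallest edgeR adjusted p (0.0253 each). The cause of these differences between settings was not tested. All other settings called 0, and genes at an unadjusted p below 0.05 ranged from 1560 to 2114 without single libraries, 1362 without the 4 epithelium-rich or muscle-rich libraries and 1293 without the diet term. Fitted with the replicate number as a block, edgeR called 0 genes (1799 at that p). Of 18 same-number pairs 4 had a correlation of deviations above 0.1 (range -0.11 to 0.27) and 4 of 12 libraries correlated best with their own number. These values gave no clear sign that the numbers pair the libraries, and they cannot exclude pairing.

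A list median counted as moved when it shifted by at least the residual SD between libraries for that list. Among the lists followed here, medians moved for adipose expansion on high-fat diet alone (-0.0542) and thermogenic genes on control diet alone (0.133). Endothelial genes moved without the 4 libraries (0.0962), on control diet alone (0.377) and on high-fat diet alone (0.0752). Lists not followed here also moved, among them muscle genes (pooled 0.717, control diet 4.17, high-fat diet -2.63) and B cell genes (-0.296, -1.13 and 0.718). The median of inflammatory genes also moved. It ranged from -0.483 to -0.236 without single libraries and was -0.189 without the 4. The sign was opposite for Lep (0.00818), Fgf13 (0.0876) and Bmp2 (-0.0862) on high-fat diet alone, for Gc (0.53) and Star (0.0768) on control diet alone and for Krt5 without transgenic control replicate 2 (-1.19 to 10.2 over single libraries left out). No other direction of the 200 genes reversed in 25 settings, leaving aside 21 whose difference was smaller than its SE. The libraries held 20.1 to 21.3 M counts each, and genes under 1 CPM rest on few counts. The parts of depth and of spread between libraries in the errors were not tested.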

Other observations

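The groups in this section were chosen after their values were seen, so their counts are descriptions. Complement genes, which encode a serum defence cascade made in part by fibroblasts and macrophages, had mostly negative differences. Of 22 tested, 18 lay below 0, 0 were higher and 6 lower at an unadjusted p below 0.05 (11.9% of all genes in either direction), and the median log2 difference was -0.26. The inhibitor Cfi stood at -0.98 (SE 0.23) and the proteases C1s1 and C1s2 of the classical pathway at -0.43 (SE 0.12) and -0.57 (SE 0.13, with 18.4% of the exon bases of C1s1 overlapping an opposite-strand gene), and DESeq2 called these and 1 other of the list. The C1q chains C1qa and C1qb, made by macrophages, stood at 0.13 (SE 0.09) and 0.09 (SE 0.09).

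Aldehyde dehydrogenases had 7 of 13 higher and 1 lower at that p, with a median of 0.29. Aldh1a1, which makes retinoic acid, was the lower one (-0.99, SE 0.23), while Aldh3b2 stood at 0.88 (SE 0.26), Aldh9a1 at 0.33 (SE 0.06) and the mitochondrial Aldh2 at 0.30 (SE 0.10). Among 12 vasoactive signals tested, 4 were higher and 1 lower at that p, with a median of 0.07. The peptide genes Edn1 and Adm stood at 0.73 (SE 0.16) and 0.71 (SE 0.18), the endothelial nitric oxide synthase Nos3 at 0.42 (SE 0.11, with 32.3% of exon bases overlapping opposite-strand genes), Vegfb at 0.34 (SE 0.07) and Vegfc at -0.34 (SE 0.13), while the other 7 lay between -0.05 and 0.12. Beside Pdk4, the related kinase genes Pdk1, Pdk2 and Pdk3 stood at 0.13 (SE 0.16), 0.60 (SE 0.13) and -0.12 (SE 0.12). Single genes of fuel use and mitochondria, picked for their values, were the mitochondrial coenzyme A carrier Slc25a42 (0.63, SE 0.13), the fatty acid transporter Slc27a1 (0.69, SE 0.19) and the mitochondrial fusion protein Mfn2 (0.23, SE 0.07). None of these genes passed edgeR's test with the filter on low counts, and Aldh1a1, Pdk2, Pdk4 and Slc25a42 passed it without the filter (adjusted p 0.0362 to 0.0473).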
